A study of Mus musculus with 16 samples.

Results

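Synaptic organizers are the adhesion molecules and secreted proteins that join the axonal to the dendritic side of a synapse, and 9 of their genes are described here in neural stem/progenitor cells (NSPCs): *Nxph1*, *Nrxn2*, *Nrxn3*, *Nlgn1*, *Nlgn2*, *Nlgn3*, *Olfm1*, *Olfm2* and *Lrrtm3*. They are 9 of the 30386 genes in the deposited expression table, matched by gene symbol. The genes were chosen by name with their levels in *Dbx2*-NSPCs and *GFP*-NSPCs already known, over all samples and within sets of replicate numbers, so their fold changes between the transgenes, the differences of these folds between the sets and their levels by set are given as a description, without a test. All 9 passed the filter on low values (more than 1 CPM, a gene's reads scaled to a fixed sample total, in at least 4 samples), which 12533 genes passed. The 16 RNA samples came from cultures of NSPCs of the subventricular zone (SVZ) of C57BL/6 J/Babr mice 3 months of age. Of these, 8 carried a constitutive *Dbx2* transgene (*Dbx2*-NSPCs) and 8 a control *GFP* transgene (*GFP*-NSPCs). All lines shared nucleofection with a pTP6 plasmid, puromycin selection and proliferative non-adherent culture with EGF and FGF2. Whether a line was 1 clone is not given in the sources used here. By the study's methods there were 2 pairs of lines, each with 4 experiments. The 8 samples of a transgene are therefore repeat experiments with 2 lines. The SEs, intervals and p-values given here treat the samples as separate and do not measure the spread among independently made lines. The intervals are adjusted neither for the number of genes nor for the way the 9 genes were chosen. For these genes no interval is therefore read as a test. Within a pair, the transgene and the line that carries it cannot be told apart. The labels number the samples of each transgene from 1 to 8 and do not say which line a sample came from, so the samples numbered 1–4 and 5–8 are called set 1–4 and set 5–8, without any statement of what divides them.

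Neurexins, among them the products of *Nrxn2* and *Nrxn3*, are presynaptic membrane proteins whose extracellular part binds a range of partners. Neuroligins (*Nlgn1*, *Nlgn2*, *Nlgn3*) and the leucine-rich repeat protein encoded by *Lrrtm3* are postsynaptic partners, neurexophilin 1 (*Nxph1*) is a secreted glycoprotein that binds α-neurexins, and *Olfm1* and *Olfm2* encode secreted olfactomedin-domain glycoproteins of the brain. Several of these genes are also transcribed in glia and in dividing precursors of the brain, and neuroligin 3 is known as a factor released by active neurons that acts on glioma and oligodendrocyte precursor cells. Dbx2, whose transgene was tested here, is a homeodomain transcription factor best known from the patterning of the spinal cord.

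Each library was made with a kit that primes at the poly-A tail, so a transcript yields reads only near its 3′ end, and the alternative starts of the neurexin genes, which give α and β forms, cannot be told apart. The recovered totals were 1803928 to 3293285 reads per sample, and 3 reads, the smallest amount taken as above 0, correspond to 0.911 to 1.66 CPM, a limit that holds for counting error alone. Reads on *Dbx2* itself, whose split between the endogenous gene and the transgene was not tested, were higher in *Dbx2*-NSPCs for 8 of 8 replicate numbers, with a log2 fold change of 1.26 ± 0.32 (SE; limma adjusted p = 0.00978), although the 8 samples of each transgene overlapped. The *Dbx2* transcript level in *GFP*-NSPCs was 120 ± 35.6 CPM in set 1–4 and 34.0 ± 3.96 CPM in set 5–8 (SD, n = 4 each). In *Dbx2*-NSPCs it was 173 ± 41.4 CPM in set 1–4 and 136 ± 16.9 CPM in set 5–8. The log2 fold change of *Dbx2* was 0.54 in set 1–4 and 1.99 in set 5–8 (limma adjusted p = 0.000104 for the difference). All 8 markers of neural stem and progenitor cells were detected. Their sum was 8074 to 8375 CPM in *GFP*-NSPCs against 5960 to 7133 CPM in *Dbx2*-NSPCs of set 1–4, and 6822 to 7567 CPM against 5590 to 6162 CPM in set 5–8, so it was lower with the *Dbx2* transgene in both sets. Of these markers, *Slc1a3*, *Fabp7* and *Egfr* passed the limma test over the 16 samples (log2 fold changes -1.03, -0.72 and -0.45). The part of this shift in the levels of the 9 genes was not tested. Microglial markers summed to at most 1.63 CPM, with *Aif1* and *Tmem119* at 0 in every sample. In such bulk samples, fewer cells of a type and less RNA per cell cannot be told apart.

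Homeodomain proteins bind DNA through a short core, TAAT (ATTA on the other strand), and the promoters of the genes with RefSeq entries were read for it. Entries existed for 7 of the 9 genes (13 starts in all). The core was searched on both strands in the 250 bases before each start, where it also covers every TAATTA. It occurred in 54.9% of all 32851 RefSeq promoter windows of this length. *Olfm1*, the gene of the 9 with the largest increase over all samples, had no match at either of its 2 starts, and the window of *Lrrtm3*, one of the lower genes, had 1. The downstream window of *Olfm1* lies inside the gene, as its start is 12697 bases after the gene's start in GENCODE. The windows of *Olfm1* and *Lrrtm3* come from RefSeq, build GRCm38.p6, with *Olfm1* on the plus and *Lrrtm3* on the minus strand. Their parts outside annotated exons are shown 5′ to 3′, in lower case with the core in capitals.
*Olfm1*, upstream start, chr2:28192843-28192991: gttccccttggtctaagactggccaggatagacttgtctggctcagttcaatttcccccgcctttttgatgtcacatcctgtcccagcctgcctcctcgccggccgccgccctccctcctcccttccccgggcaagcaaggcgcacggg
*Olfm1*, downstream start, chr2:28205439-28205658: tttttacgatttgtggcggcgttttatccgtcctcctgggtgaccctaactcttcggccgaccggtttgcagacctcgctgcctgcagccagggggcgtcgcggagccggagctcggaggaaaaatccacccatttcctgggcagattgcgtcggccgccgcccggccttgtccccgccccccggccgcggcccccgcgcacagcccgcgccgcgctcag
*Lrrtm3*, chr10:64090278-64090505: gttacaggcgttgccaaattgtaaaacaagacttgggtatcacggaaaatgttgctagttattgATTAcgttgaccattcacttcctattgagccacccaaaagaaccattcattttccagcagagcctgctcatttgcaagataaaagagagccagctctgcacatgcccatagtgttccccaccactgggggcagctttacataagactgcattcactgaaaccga
The windows of *Nxph1*, *Nlgn2* and *Olfm2* had no match at any start, *Nrxn3* had 2, 1 and 0 at its 3 starts, and *Nlgn1* had 1 and 0. The *Nxph1* window is not printed because GENCODE places it inside the first exon. These letters describe the windows only, and no binding was measured here.

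*Nxph1* (ENSMUSG00000046178; chromosome 6, 8948431 to 9249032, plus strand, GRCm38) had the largest fold change of the 9 genes over all 16 samples. In set 1–4, the levels in *GFP*-NSPCs were 79.8, 69.5, 92.9 and 63.0 CPM, against 8.35, 9.11, 14.3 and 13.6 CPM in *Dbx2*-NSPCs. Set 5–8 had 86.4, 81.9, 80.6 and 91.7 CPM in *GFP*-NSPCs, and 10.9, 10.6, 9.48 and 19.6 CPM in *Dbx2*-NSPCs. Every *GFP*-NSPC sample was thus above every *Dbx2*-NSPC sample, and the gap lay between 19.6 and 63.0 CPM. On the log2 scale the fold change was -2.74 ± 0.15 (SE), a 6.68-fold lower level. It was -2.72 (95% interval -3.13 to -2.30) in set 1–4 and -2.76 (-3.18 to -2.34) in set 5–8, so the folds of the sets differed by -0.05 on the log2 scale, with an interval from -0.64 to 0.55. For *Nxph1*, the level in set 5–8 less that in set 1–4 was 0.15 on the log2 scale (-0.15 to 0.44). The values rest on 1751 reads in *GFP*-NSPCs and on 282 reads in *Dbx2*-NSPCs. The other neurexophilin genes were not measurable in these cells, since *Nxph2* was at 0 in every sample and *Nxph3* and *Nxph4* did not exceed 0.93 CPM. Among tested genes averaging 10 CPM or more, the 50 nearest to *Nxph1* had a median log2 fold change of -0.22.

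The genes whose levels followed *Nxph1* most closely over the 16 samples, by Pearson's r of log2(CPM + 0.5) among the 8650 tested genes averaging 10 CPM or more, were *Dach1* (r = 0.963), *Pak1* (0.962), *Sox21* (0.955), *S100a13* (0.951) and *Tmtc2* (0.948). *Dach1* and *Sox21* encode transcription factors and *Pak1* a protein kinase. All 5 were lower in *Dbx2*-NSPCs, as *Nxph1* was, with log2 fold changes from -5.38 for *Dach1* to -1.35 for *Sox21*. The 16 points share the division by transgene and by set, so the correlations are given as a description.

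Of the secreted olfactomedin-domain proteins, *Olfm1* (ENSMUSG00000026833; chromosome 2, 28192992 to 28230736, plus strand) separated the samples by transgene and by set together. Its levels in *GFP*-NSPCs were 23.0, 13.1, 11.7 and 14.0 CPM in set 1–4 and 42.1, 35.3, 30.1 and 35.0 CPM in set 5–8. In *Dbx2*-NSPCs they were 67.4, 64.3, 65.1 and 53.5 CPM in set 1–4 and 126, 107, 117 and 116 CPM in set 5–8. From lowest to highest the order was *GFP*-NSPCs of set 1–4, *GFP*-NSPCs of set 5–8, *Dbx2*-NSPCs of set 1–4 and *Dbx2*-NSPCs of set 5–8, and no neighbours in this order overlapped. The log2 fold change was 1.87 ± 0.27 (SE) over all samples, 2.03 (95% interval 1.69 to 2.36) in set 1–4 and 1.70 (1.37 to 2.04) in set 5–8. The difference of these folds was -0.32, with an interval from -0.80 to 0.15. The level in set 5–8 was 2.08-fold that in set 1–4 (1.06 on the log2 scale, 0.82 to 1.29), and it was higher with either transgene.

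The genes that followed *Olfm1* most closely were *Slc6a6*, which encodes the taurine transporter (r = 0.966), *Nptx1*, a secreted neuronal pentraxin (0.966), *Camk2a*, a kinase subunit of the postsynaptic density (0.961), *Ak1* (0.959) and *Tssc4* (0.957). Each was higher in *Dbx2*-NSPCs, with log2 fold changes between 0.84 for *Ak1* and 3.33 for *Slc6a6*.

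*Olfm2* (ENSMUSG00000032172; chromosome 9, 20667690 to 20746349, minus strand) separated by transgene in set 5–8 and not in set 1–4. In set 5–8, *GFP*-NSPCs had 64.8, 66.3, 67.6 and 73.2 CPM and *Dbx2*-NSPCs had 83.8, 115, 117 and 128 CPM, without overlap. Set 1–4 had 141, 123, 141 and 140 CPM in *GFP*-NSPCs against 186, 167, 142 and 88.6 CPM in *Dbx2*-NSPCs, a spread that ran both above and below the control samples. Within the sets the log2 fold changes were 0.05 (-0.28 to 0.38) in set 1–4 and 0.69 (0.35 to 1.02) in set 5–8. The difference between them was 0.64, with an unadjusted interval from 0.17 to 1.11 that is not read as a test. The level was lower in set 5–8, by a log2 difference of -0.68 (-0.91 to -0.44), which is the opposite direction to *Olfm1*.

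**Figure D1:**
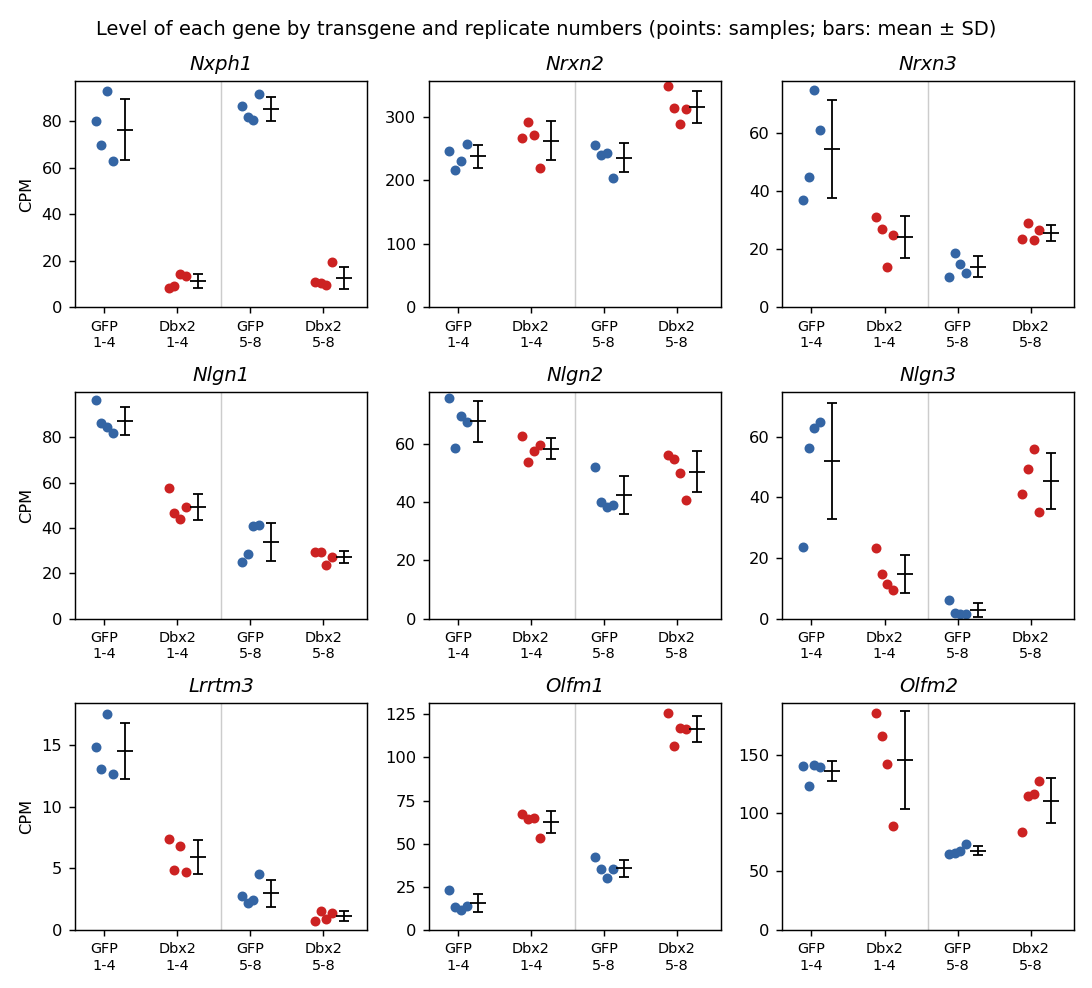
Level of each of the 9 genes in CPM (y axes, linear and starting at 0) for the 4 samples of each transgene and set of replicate numbers (x axes), in order of replicate number from left to right, with blue points for *GFP*-NSPCs, red points for *Dbx2*-NSPCs and bars for the mean ± SD. *Nxph1* separates by transgene in both sets, *Olfm1* by transgene and set, and *Nlgn3* has its low group in *Dbx2*-NSPCs of set 1–4 (9.33 to 23.4 CPM) and in *GFP*-NSPCs of set 5–8 (1.37 to 6.10 CPM).

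Among the neurexins, *Nrxn2* (ENSMUSG00000033768; chromosome 19, 6418731 to 6544169, plus strand) was moderately higher in *Dbx2*-NSPCs. The *GFP*-NSPC levels were 247, 216, 230.0 and 257 CPM in set 1–4 and 255, 239.9, 242 and 203 CPM in set 5–8. *Dbx2*-NSPCs had 266, 292, 271 and 219 CPM in set 1–4 and 348, 313, 288 and 312 CPM in set 5–8. The ranges overlapped in set 1–4 and did not in set 5–8, and 7 of 8 replicate numbers had the higher value in *Dbx2*-NSPCs. Its log2 fold change was 0.28 ± 0.09 (SE), a 1.22-fold higher level, with 0.14 (-0.07 to 0.35) in set 1–4 and 0.42 (0.22 to 0.63) in set 5–8. The level of *Nrxn2* in set 5–8 less that in set 1–4 was 0.13 on the log2 scale (-0.02 to 0.27).

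*Nrxn3* (ENSMUSG00000066392; chromosome 12, 88722876 to 90334935, plus strand) moved in opposite directions in the sets. *GFP*-NSPCs had 37.1, 44.8, 74.6 and 61.0 CPM in set 1–4 but 10.5, 18.7, 15.0 and 11.9 CPM in set 5–8. *Dbx2*-NSPCs had 31.1, 27.0, 14.0 and 24.8 CPM in set 1–4, and 23.6, 29.2, 23.0 and 26.7 CPM in set 5–8. The *Dbx2*-NSPC samples of the sets overlapped with each other, and within each set they did not overlap with the *GFP*-NSPCs, which were above them in set 1–4 and below them in set 5–8. Its log2 fold change was -1.16 (-1.64 to -0.68) in set 1–4 and 0.87 (0.39 to 1.35) in set 5–8, which gave -0.14 ± 0.35 (SE) over all samples. The difference between the folds was 2.03 (1.35 to 2.71). Between the sets, the mean level fell from 54.4 to 14.1 CPM in *GFP*-NSPCs, whereas it was 24.2 and 25.6 CPM in *Dbx2*-NSPCs.

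*Nlgn3* (ENSMUSG00000031302; chromosome X, 101299168 to 101325963, plus strand), the neuroligin found at both excitatory and inhibitory synapses, had the largest difference between the sets of the 9 genes. *GFP*-NSPCs had 23.8, 56.4, 62.9 and 65.0 CPM in set 1–4 and 6.10, 1.84, 1.37 and 1.64 CPM in set 5–8, the set 5–8 values resting on 4 to 11 reads per sample. *Dbx2*-NSPCs had 23.4, 14.9, 11.4 and 9.33 CPM in set 1–4 and 41.2, 49.4, 56.0 and 35.1 CPM in set 5–8. No sample of 1 transgene overlapped with the other within either set, yet the order of the transgenes was inverted between the sets. The log2 fold change was -1.76 (-2.48 to -1.05) in set 1–4 and 4.01 (3.30 to 4.73) in set 5–8, a difference of 5.78 (4.76 to 6.79). In linear terms the level in *Dbx2*-NSPCs was 3.40-fold lower in set 1–4 and 16.1-fold higher in set 5–8. Over all 16 samples the log2 fold change of 1.12 ± 0.76 (SE) therefore averages opposite values, and it was 0.12 with edgeR on the recovered reads. In set 1–4, *GFP*-NSPC replicate 1 (23.8 CPM) and *Dbx2*-NSPC replicate 1 (23.4 CPM) were nearly equal, so that the separation there rests on a narrow margin. Between the sets, the mean level went from 52.0 to 2.74 CPM in *GFP*-NSPCs and from 14.8 to 45.4 CPM in *Dbx2*-NSPCs.

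Of 8 markers of neuroblasts and neurons, 7 were tested and *Stmn2* was at 0 in every sample. The fold differed between the sets in 2 of the 7, *Dcx* and *Rbfox3*, in the direction of *Nlgn3* and *Nrxn3*. The summed level of the marker list was 35.5 to 56.0 CPM in *GFP*-NSPCs and 22.8 to 32.2 CPM in *Dbx2*-NSPCs of set 1–4, and 21.6 to 34.1 CPM and 34.1 to 50.3 CPM in set 5–8. *Dcx*, a microtubule-associated protein of neuroblasts, had log2 fold changes of -2.87 in set 1–4 and 3.02 in set 5–8 (limma adjusted p = 3.26e-07 for the difference), and *Rbfox3*, which encodes the neuronal nuclear protein NeuN, had -1.96 and 2.90 (adjusted p = 3.90e-06). *Dcx* did not exceed 6.84 CPM in any sample. The other 5 did not pass this test, with differences of 1.85 for *Dlx2*, 1.68 for *Snap25*, 1.55 for *Syt1*, 0.04 for *Syp* and -0.05 for *Tubb3*. The part of such cells in the levels of *Nlgn3* and *Nrxn3* was not tested.

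*Nlgn1* (ENSMUSG00000063887; chromosome 3, 25426215 to 26332460, minus strand), the neuroligin of excitatory synapses, was lower in *Dbx2*-NSPCs of set 1–4. There the *GFP*-NSPC levels were 96.3, 86.4, 84.4 and 82.0 CPM, and those of *Dbx2*-NSPCs 57.5, 46.4, 44.0 and 49.2 CPM. Set 5–8 had 24.9, 28.5, 41.0 and 41.1 CPM in *GFP*-NSPCs and 29.2, 29.2, 23.5 and 27.4 CPM in *Dbx2*-NSPCs, which overlapped. Its log2 fold change was -0.82 (-1.14 to -0.51) in set 1–4 and -0.28 (-0.59 to 0.04) in set 5–8. The difference between the sets in level was larger than either, at -1.11 on the log2 scale (-1.33 to -0.89).

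*Nlgn2* (ENSMUSG00000051790; chromosome 11, 69823122 to 69837784, minus strand), the neuroligin of inhibitory synapses, had the smallest log2 fold change of the 9 over all samples. *GFP*-NSPCs had 75.7, 58.6, 69.4 and 67.3 CPM in set 1–4 and 52.1, 40.2, 38.3 and 39.1 CPM in set 5–8. *Dbx2*-NSPCs had 62.6, 53.7, 57.6 and 59.6 CPM in set 1–4 and 56.3, 54.7, 50.1 and 40.9 CPM in set 5–8. The transgenes overlapped in both sets, and the log2 fold change over all samples was 0.02 with a 95% interval from -0.29 to 0.33, which leaves room for a change of that size in either direction. It was -0.21 (-0.48 to 0.06) in set 1–4 and 0.25 (-0.02 to 0.52) in set 5–8, so the value over all samples averages opposite signs. The difference between the folds was 0.46, with an unadjusted interval from 0.07 to 0.84 that is not read as a test. The level was lower in set 5–8, by -0.45 on the log2 scale (-0.64 to -0.25).

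*Lrrtm3* (ENSMUSG00000042846; chromosome 10, 63928472 to 64090277, minus strand) was the least abundant by reads of the 9 genes and was lower in *Dbx2*-NSPCs for 8 of 8 replicate numbers. *GFP*-NSPCs had 14.9, 13.1, 17.6 and 12.7 CPM in set 1–4 and 2.77, 2.15, 2.39 and 4.52 CPM in set 5–8. *Dbx2*-NSPCs had 7.38, 4.86, 6.84 and 4.66 CPM in set 1–4 and 0.70, 1.55, 0.90 and 1.35 CPM in set 5–8. The transgenes did not overlap within either set, and no neighbouring groups overlapped in the order from *Dbx2*-NSPCs of set 5–8 up to *GFP*-NSPCs of set 1–4. The *Dbx2*-NSPC values of set 5–8 rest on 13 reads in all, and 2 of these 4 samples were at or under 3 reads, so the fold change there is imprecise and understated on the log2(CPM + 0.5) scale. Its log2 fold change was -1.24 (-1.87 to -0.61) in set 1–4 and -1.08 (-1.70 to -0.45) in set 5–8, and the level in set 5–8 was 4.21-fold lower than in set 1–4 (-2.07 on the log2 scale, -2.52 to -1.63). *Lrrtm3* lies within *Ctnna3*, which is transcribed from the opposite strand across its last bases. The strand used in counting is not given in the sources used here, but *Ctnna3* itself had at most 2 reads in a sample. Neighbours of *Lrrtm3* were taken as the 50 nearest tested genes averaging 10 CPM or more. Their median log2 fold change was -0.43 in set 5–8 and -0.09 in set 1–4. Within set 5–8 the neighbouring genes were thus also lower in *Dbx2*-NSPCs, and their part in the value of *Lrrtm3* was not tested.

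**Figure D2:**
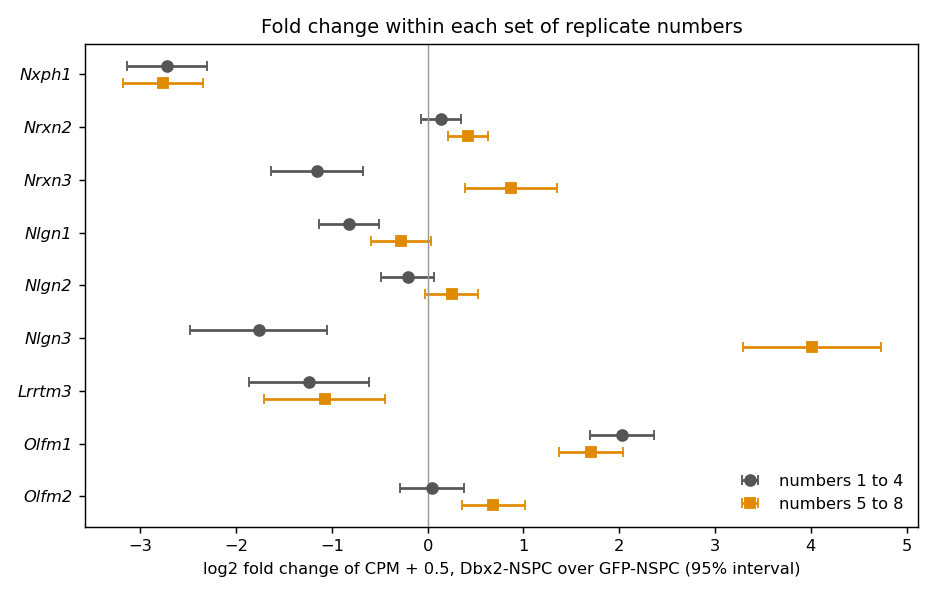
Log2 fold change of CPM + 0.5 in *Dbx2*-NSPCs over *GFP*-NSPCs (x axis) for each of the 9 genes (y axis), with grey circles for set 1–4, orange squares for set 5–8 and bars for the 95% interval. The values of *Nxph1* (-2.72 and -2.76), *Olfm1* and *Lrrtm3* lie on the same side of 0 in both sets. Those of *Nrxn3*, *Nlgn3* and *Nlgn2* lie on opposite sides, for *Nlgn2* with intervals that include 0.

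Counted together, 3 of the 9 genes passed an adjusted p of 0.05 in limma over the 16 samples (*Olfm1* and *Nrxn2* higher, *Nxph1* lower), where 15.8% of all tested genes did. Blocking on the replicate number raised this count to 5, adding *Nlgn1* and *Lrrtm3*. Of the 9, 6 passed within set 1–4 (background 20.5%), 1 higher and 5 lower, and 7 within set 5–8 (background 20.7%), 5 higher and 2 lower. Without *GFP*-NSPC replicate 8 the count in set 5–8 was 6, as *Lrrtm3* was lost. The transgenes did not overlap in 2 genes over all samples (background 3.41%), in 6 genes in set 1–4 (19.6%) and in 7 genes in set 5–8 (24.8%). *Nxph1*, *Olfm1* and *Lrrtm3* passed in both sets in the same direction, as 7.40% of all genes did, and *Nlgn3* and *Nrxn3* passed in both in opposite directions, as 1.76% did. Since the genes were selected on these contrasts, nothing is read from the counts. The median log2 fold change of the 9 genes was 0.02 over all samples, -0.82 in set 1–4 and 0.42 in set 5–8, beside -0.02, -0.04 and -0.01 for all tested genes.

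Averaged over both transgenes, the level was lower in set 5–8 for *Olfm2*, *Nrxn3*, *Nlgn1*, *Nlgn2*, *Nlgn3* and *Lrrtm3*, with log2 differences from -2.07 for *Lrrtm3* to -0.45 for *Nlgn2*, and higher for *Olfm1*. For *Nlgn3* this average (-1.24) joins a fall in *GFP*-NSPCs with a rise in *Dbx2*-NSPCs, and for *Nrxn3* (-0.88) the fall was in *GFP*-NSPCs. The median was -0.68 over the 9 genes and 0.03 over all tested genes. The cell line, and any other feature that divided the sets, cannot be told apart from the replicate numbers.

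Beyond these 9, a wider list of 101 genes for synaptic organizers and the proteins that bind them was drawn up by role, and 72 of them were tested. Earlier results of these data were known by then, so the shares of this list and the p-values of its genes are given as a description. Over the 16 samples, 16 of the 72 passed (22.2%, beside 15.8% of all genes), 11 higher and 5 lower in *Dbx2*-NSPCs, with a median log2 fold change of 0.12. The fold differed between the sets in 20 of the 72 (27.8%, beside 9.44% of all genes), and the level in 34 (47.2%, beside 33.6%), of which 24 were lower in set 5–8. The remaining leucine-rich repeat neurexin ligands (3 tested) and olfactomedin-domain proteins (4 tested) held no gene that passed over the 16 samples. Of the other neurexin ligands and neuroligin partners, 1 of 9 passed. This was *Mdga1*, whose product blocks the binding of neuroligins to neurexins, and which rose from 10.2 ± 2.75 to 25.0 ± 8.87 CPM in *Dbx2*-NSPCs (SD, n = 8 per transgene; log2 fold change 1.20, limma adjusted p = 0.000958). Its rise was larger in set 5–8 (1.91) than in set 1–4 (0.49; adjusted p = 0.00277 for the difference).

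In the list of LAR-type phosphatases and their ligands, 3 of 16 tested genes passed, 2 higher and 1 lower. *Ntrk3*, the neurotrophin-3 receptor, fell from 45.7 ± 14.0 to 15.97 ± 4.22 CPM without overlap (SD, n = 8 each; log2 fold change -1.47, limma adjusted p = 2.81e-05), and its folds in the sets were -1.57 and -1.37. *Lrfn1*, a postsynaptic leucine-rich repeat adhesion protein, rose by 0.67 on the log2 scale (adjusted p = 0.0118). *Lrrc4c*, the netrin-G1 ligand, went from 15.7 ± 15.3 to 39.1 ± 10.2 CPM, and its call (adjusted p = 0.0215) was lost with edgeR and DESeq2 (adjusted p = 0.134 with the latter). The *Lrrc4c* difference came from set 5–8, where the log2 fold change was 4.08, against 0.24 in set 1–4 (adjusted p under limma for the difference, 6.75e-07). *Adgrl2*, which encodes a latrophilin, was the only gene to pass among 8 latrophilins, FLRT proteins and teneurins (log2 fold change -0.72, limma adjusted p = 0.00135).

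Secreted proteins other than *Nxph1* and *Olfm1* were among the largest increases of the list. *Nptx1* rose from 159 ± 48.7 to 378 ± 128 CPM (log2 fold change 1.24, limma adjusted p = 0.000639), with log2 folds of 1.16 and 1.32 in the sets. Of the 7 genes tested in the list of LGI proteins, pentraxins and their receptors, only *Nptx2*, another pentraxin, also passed (2.92, adjusted p = 8.96e-06), and it is named because its value was seen. The mean of *Nptx2* was 0.11 CPM in *GFP*-NSPCs, under the 3-read limit, and 4.6 CPM in *Dbx2*-NSPCs. The size of this fold therefore depends on the 0.5 added to CPM. *Sparc*, an astrocyte-secreted matrix protein that counters synapse formation, rose from 351 ± 77.2 to 1026 ± 366 CPM without overlap (1.49, adjusted p = 2.42e-05). Its relative *Sparcl1*, which promotes synapse formation, rose only by the values of set 1–4, with log2 fold changes of 3.54 there and 0.01 in set 5–8. The call for *Sparcl1* over all samples (adjusted p = 0.0250) was lost with edgeR, with DESeq2 (0.0669) and without *GFP*-NSPC replicate 3 (0.0506). These were the called genes among 7 astrocyte-secreted proteins tested. Astrocyte markers summed to 394 to 474 CPM in *GFP*-NSPCs of set 5–8 and to 783 to 1120 CPM in the other groups. The single markers did not move together. Over the 16 samples, *Gfap* (log2 fold change 3.31) and *Aldoc* (1.42) passed the limma test as higher in *Dbx2*-NSPCs. *Aldh1l1* passed as lower (-1.20), and *Aqp4*, *S100b* and *Slc1a2* did not pass. The part of these markers in the levels of the secreted proteins was not tested.

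Scaffold proteins that bind the intracellular ends of neurexins or neuroligins were split, with 3 higher, 3 lower and 7 not called among 13 tested. *Magi2* fell from 80.4 ± 10.8 to 47.3 ± 7.30 CPM (SD, n = 8 each; log2 fold change -0.76, limma adjusted p = 6.49e-05) and *Lin7c* from 131 ± 15.5 to 78.2 ± 6.27 CPM (-0.74, adjusted p = 5.87e-06), both without overlap between the transgenes. *Apba1*, which encodes the adaptor Mint1, rose from 4.44 ± 3.98 to 11.6 ± 4.98 CPM (1.64, adjusted p = 0.0166). The other called scaffolds, named after their values were seen, were *Cask* (-0.40), *Apba2* (0.54) and *Magi1* (0.47). The log2 fold change of *Magi1* was 0.85 in set 1–4 and 0.10 in set 5–8, and that of *Apba2* was 0.23 and 0.84. Both differences passed the limma test (adjusted p = 0.00459 and 0.0275), and that of *Cask* did not. In the Nogo receptor family, *Rtn4*, which encodes Nogo, was the 1 gene of 4 to pass, with a rise of 0.40 on the log2 scale (adjusted p = 0.00102) and no overlap.

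**Figure D3:**
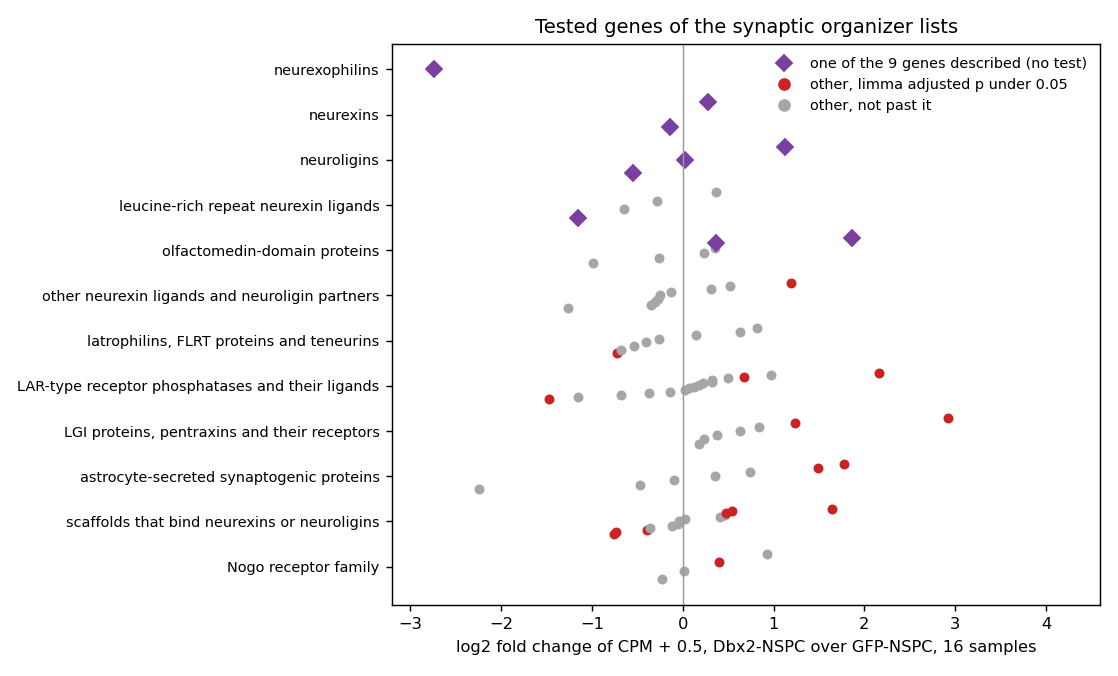
Log2 fold change of CPM + 0.5 in *Dbx2*-NSPCs over *GFP*-NSPCs over all 16 samples (x axis) for tested genes of 12 role lists (y axis), with purple diamonds for the 9 genes, red circles for other genes with a limma adjusted p under 0.05 and grey circles for the rest. *Nxph1* (-2.74) is the lowest value of all lists, and genes to the left and right of 0 occur in most lists.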

How the data were processed

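The authors trimmed 3′ mRNA reads of 101 bp from 100 ng of total RNA with bbduk after FastQC 0.11.8, aligned them with STAR 2.5.0a to GRCm38 (mm10) and deposited CPM per gene, that is, reads scaled to the sample's total, for 16 samples. The submitters' notes also list edgeR 3.36. The counting tool and strand are not given in the sources used here. Of the table's columns, 0 were left unused. Low values gave the CPM of 1 read (0.30 to 0.55), and 99.99% to 100% of values above 0 per sample were then whole reads, within 0.1 read plus 0.005 CPM. Between 5.43% and 8.76% of a sample's reads fell on *Gm42418*, the top gene.

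Log2(CPM + 0.5) of 12533 genes (more than 1 CPM in at least 4 samples) was tested 2-sided with limma 3.58.1 in R 4.3.3 (eBayes with trend, Benjamini-Hochberg adjustment over all tested genes, threshold 0.05). One model had the transgene alone, as the labels give no cell line. The other had a mean for each transgene and set, for the folds within sets, their difference and the level. By its methods, the study instead fitted edgeR with cell line batch as covariate, so its calls come from another model. Whether samples of a group were separate cultures is stated in the study's methods, not in the labels. edgeR 4.0.16 and DESeq2 1.42.0 on recovered reads, other pseudocounts, filters and scalings, each left-out sample, the set as covariate and the replicate block were alternatives. Deviations of same-numbered samples from their transgene means correlated at 0.152 to 0.303 in all 8 pairs. From the means of transgene and set the mean correlation was 0.040, with 1 of 8 pairs over 0.1. Only some of these fits were also run on simulated data, and the outcome is not given here.

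The 9 genes and the lists were chosen with earlier results of these data known. Named besides them were *Dbx2*, the other neurexophilins, the 5 genes most correlated with *Nxph1* and with *Olfm1*, and up to 3 called genes per list with the largest fold and, in 1 transgene, a mean reaching 10 CPM. One listed gene is not reported here. Gene positions came from GENCODE M21. Python 3.11.15, numpy 2.4.6, pandas 2.3.3 and matplotlib 3.10.9 were used.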

Additional observations from a re-analysis of the deposited data

Results flagged for a closer look

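Of 84 groups of samples examined for a single distant value, 7 held one, where chance gives about 1 in 20. They were *Nxph1* in *Dbx2*-NSPC replicate 8 (19.6 CPM, above the other 3 of set 5–8), *Nrxn3* in *Dbx2*-NSPC replicate 3 (14.0 CPM, below the other 7), *Nlgn2* in *GFP*-NSPC replicate 5 (52.1 CPM) and *Nlgn3* in the same sample (6.10 CPM), both above the others of set 5–8. *Olfm2* in *GFP*-NSPC replicate 2 (123 CPM) was below the others of set 1–4, *Dbx2* in *Dbx2*-NSPC replicate 1 (232 CPM) above the other 7, and *Lrrc4c* in *Dbx2*-NSPC replicate 4 (16.5 CPM) below the other 7.

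The log2 fold change in set 5–8 less that in set 1–4 was 5.78 for *Nlgn3* and 2.03 for *Nrxn3*, in both of which *Dbx2*-NSPCs were lower for all numbers of set 1–4 and higher for all numbers of set 5–8. *Nlgn2* had the same order of the transgenes for every number, with a smaller difference of 0.46 and overlapping ranges. For these genes, which were selected with the folds within the sets known, no test is given. Among genes outside the 9, those whose difference passed the limma test included *Lrrc4c* (3.84), *Dbx2* (1.45), *Mdga1* (1.42), *Apba2* (0.61), *Magi1* (-0.75), *Sparcl1* (-3.53) and *Sparc* (-1.07).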

How the results depend on the processing

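With the set of numbers as a covariate 3034 genes were called, against 1982 without it, and 5 of the 9 synaptic organizer genes against 3; with the replicate block the 9 genes also gave 5. Leaving out 1 sample at a time gave 1684 to 2210 genes and 2 or 3 of the 9. *Nrxn2* was the gene lost, without *GFP*-NSPC replicate 2, 3 or 8 or *Dbx2*-NSPC replicate 5, 6 or 8. In set 5–8, *Lrrtm3* was lost without *GFP*-NSPC replicate 8. No called value changed sign, but values near 0 did over the alternatives: the log2 fold changes of *Nrxn3* (-0.45 to 0.06) and *Nlgn2* (-0.05 to 0.09) over all samples and of *Olfm2* in set 1–4 (-0.09 to 0.27), and the differences of folds of *Nxph1* (-0.27 to 0.07), *Lrrtm3* (-0.03 to 0.42) and *Nptx1* (-0.03 to 0.30). The log2 fold change of *Nlgn3* over all samples was 0.12 with edgeR and 0.15 with DESeq2, and that of *Lrrtm3* in set 5–8 was -0.65 with a pseudocount of 2. Counts near the 3-read floor limit *Lrrtm3* in *Dbx2*-NSPCs of set 5–8 and *Nlgn3* in *GFP*-NSPCs of set 5–8.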
